A study of Danio rerio with 20 samples.

Results

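The 10 genes described here mark hepatic stellate cells or encode the fibrillar matrix that those cells deposit: col1a1a, col1a1b, col1a2, col5a1, dcn, lum, hand2, acta2, pdgfrb and sparc. They were taken by name from the 32520 genes of the count tables, with each Ensembl identifier matched to its symbol, a rule that uses no measured value. The names themselves were chosen with earlier results of these data known. Livers of 20 male zebrafish were profiled by bulk RNA sequencing in 2 experiments, 1 library per fish. In the CreLox experiment, fish of 11 months post fertilization (mpf) carried Tg(fabp10a:CreERT2) and Tg(fabp10a:flox-pt-β-cat) and had been exposed as larvae to tamoxifen (TAM, the 4-hydroxy form, 10 µM), starting 3 and ending 6 days after fertilization. They were sorted by histology of the rest of the liver into fish with hepatocellular carcinoma (CreLox HCC, n = 4) and fish without it (CreLox without HCC, n = 2). Their siblings carried only the Cre driver and received 0.1% ethanol over the same days (Cre controls, n = 4). In the HepABC experiment, fish of 6 mpf were untreated carriers of Tg(fabp10a:pt-β-cat) with HCC (HepABC HCC, n = 5) or untreated non-transgenic siblings without HCC (non-transgenic controls, n = 5). The fabp10a promoter is active in hepatocytes and drives every transgene of both models. CreLox fish differed from their controls in the β-catenin transgene and in the tamoxifen exposure, whose parts cannot be told apart.

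Hepatic stellate cells lie between the sinusoidal endothelium and the hepatocytes. At rest they store vitamin A, and after injury they can turn into contractile cells that lay down collagen, the process behind liver fibrosis. Type I collagen is a triple helix of α1 and α2 chains, and type V collagen is built into the same fibrils and limits their width. Decorin and lumican are small leucine-rich proteoglycans that bind the fibril surface, and Sparc is a matrix protein that binds collagen.

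Each library held between 20903187 and 37994885 counted fragments. Levels below are CPM, counts scaled to a shared library size, with sizes corrected by trimmed mean of M values (TMM), a scaling that assumes most genes to be unchanged. CPM values were compared between fish and not between genes, because gene lengths were not used. Differences are log2 fold changes from edgeR's quasi-likelihood test with its standard error (SE), and a gene was called at a Benjamini-Hochberg adjusted p under 0.05 over all genes tested. Of the 10 genes, 9 passed the low-count filter in each experiment. The exception was lum, which had no count in 11 of 20 fish. The stellate cell markers hand2, pdgfrb, acta2, LRAT, COLEC11 and col1a1a had counts in 20 of 20 fish. In bulk tissue, fewer stellate cells, less RNA per stellate cell and a change in RNA from other cell types cannot be told apart.

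In HepABC HCC, 4 of the 9 tested genes fell and none rose: col5a1, sparc, hand2 and pdgfrb. Among all 15864 genes tested there, 16.2% were called lower and 17.4% higher. The median log2 fold change was -1.18 over the 9 genes and -0.00101 over all genes. In CreLox HCC, edgeR called 0 of 9 genes, where 4.2% of 16837 genes were called, 2.39% higher and 1.81% lower. At an unadjusted p under 0.05, 7 of the 9 were lower in CreLox HCC, but the share of all genes at that threshold was not computed. DESeq2's Wald test called 5 of them lower (col1a1a, col5a1, dcn, acta2 and sparc), against 5.76% of all genes under that tool. The median log2 fold change in CreLox HCC was -1.46 over the 9 genes and -0.0475 over all genes.

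**Figure D1:**
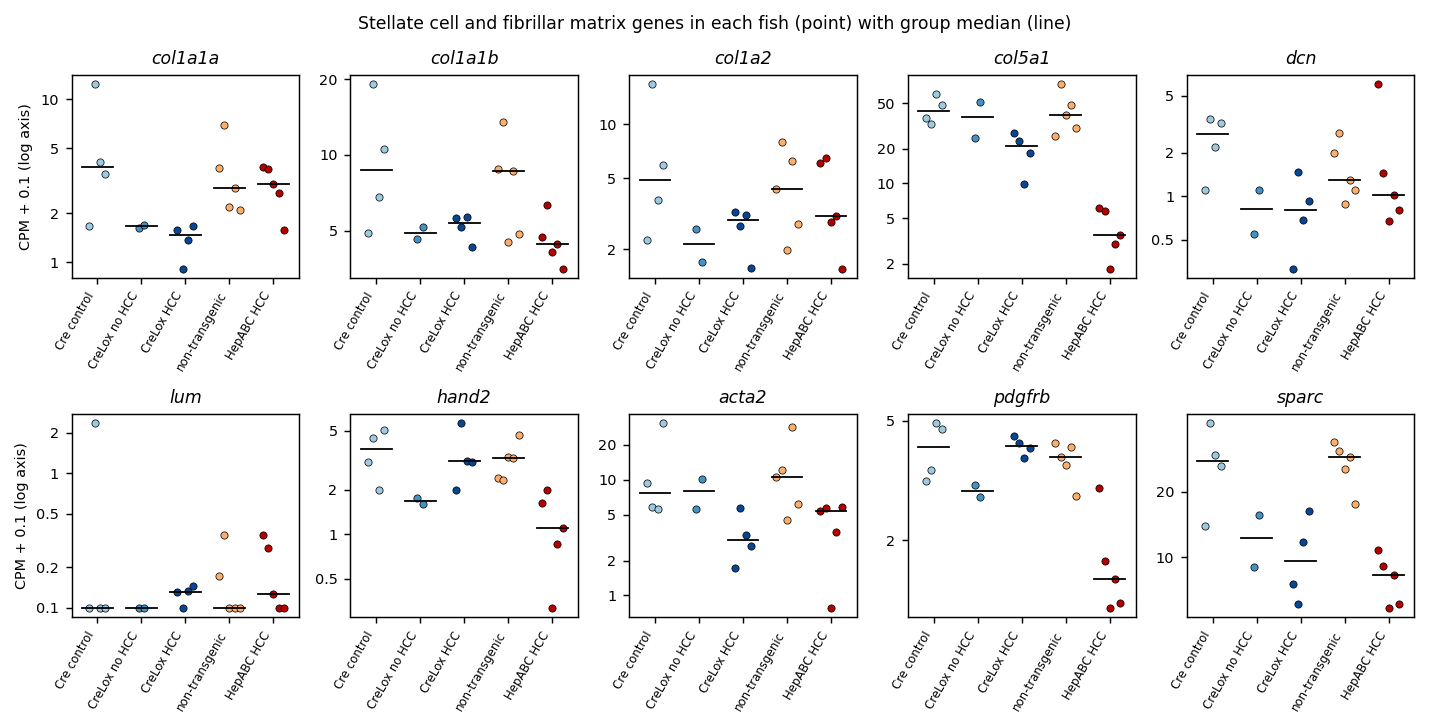
CPM plus 0.1 (log axis) of each of the 10 genes in each fish (points) of the 5 groups, with the group median as a line. For col5a1 all 5 HepABC HCC fish lie between 1.72 and 6.05 CPM, below every other fish, while the ranges of the 3 type I collagen genes overlap between HepABC HCC and its controls and lum is near 0 in all fish but 1 Cre control.

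The gene col5a1 encodes the α1 chain of type V collagen. In the 5 non-transgenic controls it had 25.6, 30.4, 39.4, 47.9 and 73.5 CPM. In the 5 HepABC HCC fish it had 1.72, 2.86, 3.44, 5.67 and 6.05 CPM. The groups did not overlap, and the highest tumor was well below the lowest control. The fall was 11.3-fold (log2 fold change -3.49, SE 0.41, edgeR adjusted p = 2.08e-04), and it was called with each of the 10 fish left out in turn (log2 fold change from -3.71 to -3.24). Among all genes tested, 10.8% had every HepABC HCC fish below every control, as did 3 of the 9 genes here (col5a1, hand2 and sparc).

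In the CreLox experiment, col5a1 had 32.5, 37.3, 48.4 and 59.4 CPM in the Cre controls and 9.69, 18.4, 23.4 and 27.4 CPM in CreLox HCC. These groups did not overlap either, but the gap between them was narrow. The log2 fold change of -1.19 (SE 0.35) did not pass edgeR's threshold (adjusted p = 0.0845), whereas DESeq2's Wald test called it (adjusted p = 0.0219). In the CreLox fish without HCC it had 24.6 and 51.0 CPM, 1 below and 1 within the range of the Cre controls. Every CreLox HCC fish was below every Cre control for col1a1a and col5a1, 2 of 9 genes, against 6% of all genes.

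The change of col5a1 was larger in HepABC HCC than in CreLox HCC. In a fit of all 20 libraries, the difference of the 2 log2 fold changes was -2.28 (SE 0.55, edgeR adjusted p = 0.015). It was the 1 gene of 10 called in that test, in which 5.33% of all genes were called lower and 6.01% higher, and it was called with each of the 20 fish left out. The 2 experiments differed in age, transgene, treatment and in whether optical duplicates were filtered, so these cannot be told apart in this difference.

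Type I collagen has 3 genes in zebrafish: col1a1a and col1a1b for α1 chains, which are paralogs and may share reads, and col1a2 for the α2 chain. In the non-transgenic controls col1a2 had 1.89, 2.68, 4.25, 6.18 and 7.85 CPM, and in HepABC HCC it had 1.46, 2.73, 2.96, 6.00 and 6.36 CPM. These ranges overlapped almost completely, and the log2 fold change was -0.27 (SE 0.47, adjusted p = 0.697). For col1a1a the means were 3.48 ± 2.03 CPM (SD, n = 5) in the controls and 2.87 ± 0.92 CPM (SD, n = 5) in HepABC HCC. Its log2 fold change of -0.31 had a 95% interval from -1.06 to 0.44, which still holds a fall of 1 log2 unit. For col1a1b the values were 4.42, 4.76, 8.54, 8.69 and 13.4 CPM in the controls and 3.44, 4.01, 4.34, 4.62 and 6.21 CPM in HepABC HCC, with 3 of 5 tumors below every control. It was the lowest of the 3 relative to its controls (log2 fold change -0.85, SE 0.31) and missed the threshold (edgeR adjusted p = 0.0546), with DESeq2 just past it (adjusted p = 0.0494).

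The 3 type I collagen genes spread widely among the Cre controls. For col1a1a the Cre controls had 1.57, 3.40, 4.04 and 12.4 CPM, for col1a1b 4.82, 6.72, 10.5 and 19.1 CPM, and for col1a2 2.15, 3.68, 5.86 and 16.8 CPM. In each gene the highest value came from fish 628 and the lowest from fish 630. The CreLox HCC fish were tightly grouped by comparison, with 0.816 to 1.56 CPM of col1a1a, 4.22 to 5.57 CPM of col1a1b and 1.47 to 3.15 CPM of col1a2. The CreLox HCC fish thus matched the low end of the Cre controls, and for col1a1a the highest tumor (1.56 CPM) was just under the lowest control (1.57 CPM).

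The fitted log2 fold changes in CreLox HCC were -2.10 (SE 0.56) for col1a1a, -1.05 (SE 0.38) for col1a1b and -1.51 (SE 0.58) for col1a2, with edgeR adjusted p of 0.0642, 0.136 and 0.153. Fish 628 set much of their size. Without it the log2 fold changes were -1.25, -0.55 and -0.62 in the same order. Without fish 630, col1a1a passed the threshold (adjusted p = 0.0379). The difference in change between HepABC and CreLox HCC was 1.79 (SE 0.69) for col1a1a and did not pass the threshold (adjusted p = 0.0958). It was 0.95 without fish 628, and it passed without fish 630 (adjusted p = 0.0482), without fish 317C2 (0.0446) and with library size alone (2.50, adjusted p = 0.0249).

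**Figure D2:**
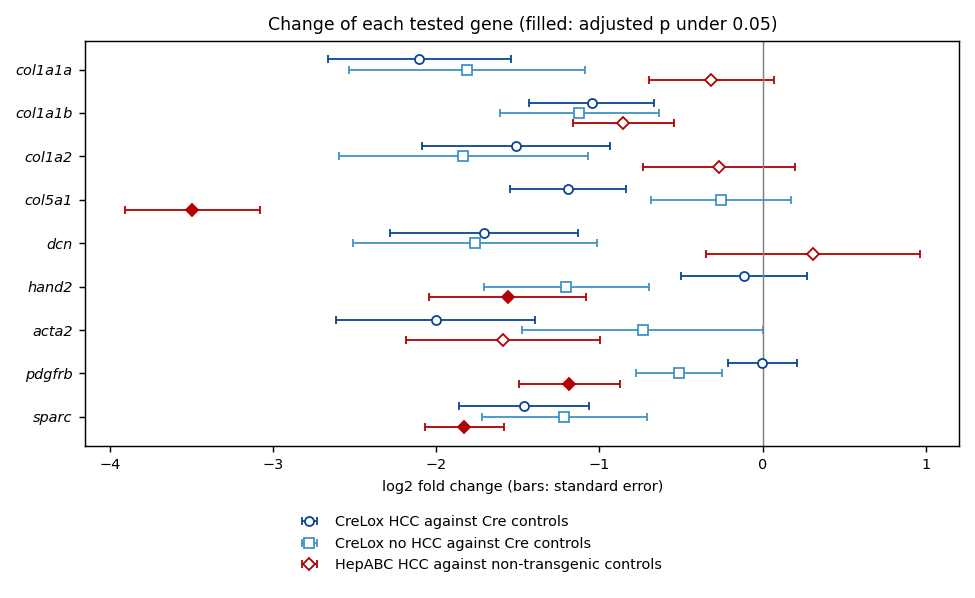
Log2 fold change (x axis) with its standard error (bars) of the 9 tested genes in 3 comparisons, CreLox HCC and CreLox without HCC against the Cre controls and HepABC HCC against the non-transgenic controls. Filled points, all 4 of them in HepABC HCC, passed an adjusted p under 0.05; col5a1 at -3.49 is the farthest from 0.

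The ratio of col5a1 reads to the summed reads of the 3 type I collagen genes within a fish does not depend on how libraries are scaled. It was computed after the values were seen and is given as a description. In the non-transgenic controls it ran from 1.54 to 4.68, with a median of 2.74. In HepABC HCC it ran from 0.177 to 0.539, with a median of 0.351. It ran from 0.673, in fish 628, to 4.36 in the Cre controls and from 0.983 to 2.76 in CreLox HCC. Within the HepABC HCC libraries, col5a1 was therefore low relative to type I collagen in each fish, and in CreLox HCC the ratios lay inside the range of the Cre controls.

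**Figure D3:**
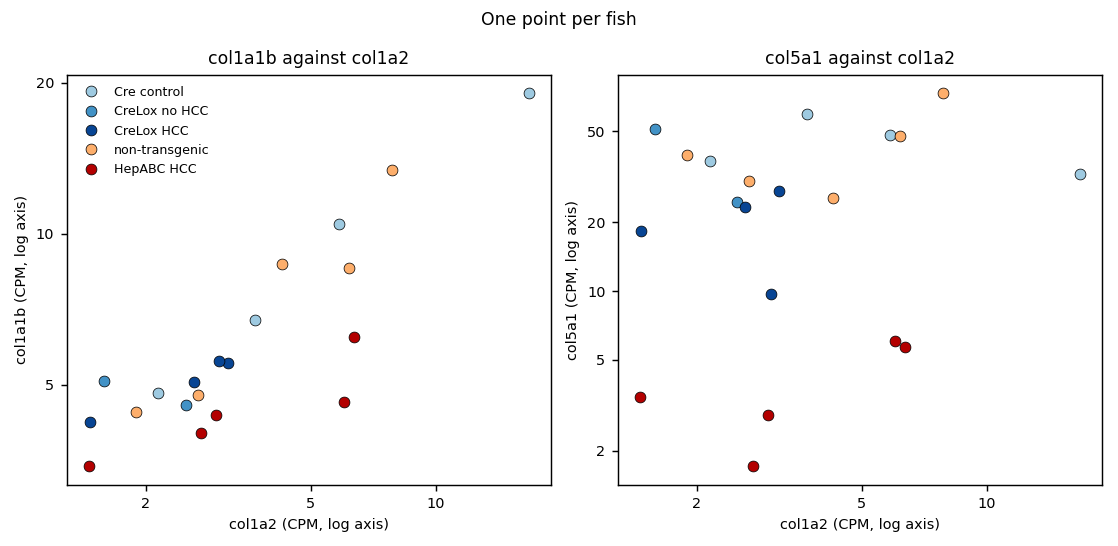
CPM of col1a1b (left) and of col5a1 (right) against CPM of col1a2 in each of the 20 fish, both axes logarithmic and points coloured by group. Across fish col1a1b is higher where col1a2 is higher, though not between the 2 CreLox fish without HCC, while the col5a1 points of HepABC HCC, at 1.72 to 6.05 CPM, lie apart from the others at the same col1a2 level.

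Decorin, encoded by dcn, had low counts, between 7 and 315 per library. The Cre controls had 1.00, 2.09, 3.15 and 3.34 CPM, and the CreLox HCC fish had 0.214, 0.589, 0.826 and 1.37 CPM. The groups overlapped in 1 fish of each, and the log2 fold change of -1.71 (SE 0.57) was not called by edgeR (adjusted p = 0.114) but was by DESeq2 (adjusted p = 0.0421). In the non-transgenic controls dcn had 0.777 to 2.64 CPM. HepABC HCC fish had 0.573, 0.698, 0.921, 1.36 and 5.96 CPM. The high value belonged to fish 317E5 alone, and it turned the direction: the log2 fold change was 0.31 (SE 0.65, adjusted p = 0.753) with this fish and -0.80 (adjusted p = 0.189) without it.

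Lumican, encoded by lum, was close to the limit of detection. Fish 628 had 67 counts (2.26 CPM), and the other 3 Cre controls had 0, where a count of 0 allows up to 0.136 to 0.15 CPM by a limit of 3 counts for counting error. Elsewhere the highest count was 13, in fish 317E5. The fish with the most lum was thus also the fish with the most col1a1a, col1a1b, col1a2, dcn and sparc among the Cre controls. In the RefSeq zebrafish annotation lum and dcn are neighboring genes, with no other protein-coding gene listed between them.

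Sparc binds collagen and is expressed by many mesenchymal and endothelial cells. The non-transgenic controls had 17.6, 25.4, 28.9, 30.8 and 34.1 CPM of sparc, and the HepABC HCC fish had 5.73, 5.97, 8.16, 9.04 and 10.7 CPM. Every tumor was below every control, and the fall was 3.55-fold (log2 fold change -1.83, SE 0.24, edgeR adjusted p = 3.68e-04). It was called with each of the 10 fish left out (adjusted p from 4.32e-04 to 0.0015). In the Cre controls sparc had 13.9, 26.1, 29.4 and 41.5 CPM and in CreLox HCC 5.97, 7.38, 11.6 and 16.2 CPM. Only the lowest control and the highest tumor crossed. The log2 fold change there was -1.46 (SE 0.40, adjusted p = 0.0675), and the difference between the 2 models was -0.36 (SE 0.46, adjusted p = 0.661). Sparc passed the CreLox threshold without control fish 630 (adjusted p = 0.0485) and without tumor fish 624 (adjusted p = 0.0396).

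The transcription factor Hand2 marks stellate cells in the zebrafish liver. The non-transgenic controls had 2.23, 2.29, 3.20, 3.21 and 4.62 CPM of hand2 and the HepABC HCC fish 0.218, 0.760, 1.00, 1.53 and 1.88 CPM. The groups did not overlap, with a 2.95-fold fall (log2 fold change -1.56, SE 0.48, edgeR adjusted p = 0.0265). The call depended on single fish: the adjusted p was 0.0655 without control 317C8, 0.0621 without tumor 317E10 and 0.0571 without tumor 317E11. In CreLox HCC hand2 had 1.90, 2.98, 3.04 and 5.55 CPM, inside and just around the Cre controls' 1.91, 2.96, 4.39 and 5.01 CPM (log2 fold change -0.11, 95% interval -0.87 to 0.64, adjusted p = 0.88).

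The receptor for platelet-derived growth factor β, encoded by pdgfrb, relays a growth signal to stellate cells and pericytes. It had 2.71, 3.45, 3.67, 3.99 and 4.11 CPM in the non-transgenic controls and 1.09, 1.13, 1.38, 1.61 and 2.88 CPM in HepABC HCC. A single tumor, fish 317E5, reached the control range. The fall was 2.27-fold (log2 fold change -1.18, SE 0.31, edgeR adjusted p = 0.0128) and was called with each of the 10 fish left out. In CreLox HCC pdgfrb had 3.67 to 4.35 CPM against 3.05 to 4.81 CPM in the Cre controls, with a log2 fold change of -0.0015 (95% interval -0.41 to 0.41, adjusted p = 0.997). The difference between the models, -1.17 (SE 0.38), was at adjusted p = 0.0516 in edgeR and 0.0244 in DESeq2.

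Smooth muscle actin, encoded by acta2, is the usual marker of activated stellate cells and of vessel walls. It had 5.45, 5.74, 9.30 and 30.7 CPM in the Cre controls and 1.62, 2.57, 3.24 and 5.55 CPM in CreLox HCC. The tumors were near or under the low controls, and a single control, fish 622, stood far above the rest. The log2 fold change was -2.0 (SE 0.61, edgeR adjusted p = 0.0891, DESeq2 adjusted p = 0.012), and -1.08 without fish 622. The non-transgenic controls had 4.37, 6.05, 10.4, 11.9 and 28.1 CPM and HepABC HCC 0.682, 3.46, 5.24, 5.62 and 5.74 CPM. The groups overlapped (log2 fold change -1.59, SE 0.59, edgeR adjusted p = 0.0585, DESeq2 adjusted p = 0.0248). DESeq2 called 6 of 10 genes lower in HepABC HCC, against 16.1% of all genes under that tool.

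The HepABC values depend on how libraries were scaled. TMM factors were 1.12 to 1.5 in HepABC HCC and 0.757 to 0.867 in the controls. With library size alone as the scaling, the middle of all log2 fold changes shifted up, to 0.87, and 5.38% of genes were called lower and 50.1% higher. Under that scaling col5a1 (-2.59) and sparc (-0.94) were still called lower, hand2 (-0.63) and pdgfrb (-0.29) were not, and the log2 fold changes of col1a1a, col1a1b and col1a2 became 0.56, 0.02 and 0.61.

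The CreLox livers without HCC address whether the genes differ in fish that carry the switched transgene but no tumor. All 9 tested genes had negative log2 fold changes against the Cre controls, from -1.83 for col1a2 to -0.25 for col5a1, with a median of -1.20 against -0.0493 over all genes. edgeR called 0 of 9 (adjusted p from 0.437 to 0.879), with 6 of 9 at an unadjusted p under 0.05, DESeq2 called 0, and 0.315% of all genes were called by edgeR. That percentage is for adjusted calls, and none was computed for an unadjusted p. The 2 fish had 1.53 and 1.59 CPM of col1a1a, 0.444 and 0.999 CPM of dcn, 1.5 and 1.66 CPM of hand2 and 8.88 and 15.5 CPM of sparc. Both were below every Cre control for dcn, hand2 and pdgfrb, and at or near the lowest control for the others named. How often genes in general separate in this way was not computed, so this is a description of the fish only. Without control fish 628 the log2 fold changes of col1a2 and col1a1a shrank to -0.94 and -0.96. Without tumor-free fish 625 col5a1 turned to 0.18, and without control fish 622 acta2 turned to 0.18.

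Between CreLox HCC and CreLox without HCC, edgeR called 0 of 9 genes (adjusted p = 1 for each), with 1 at an unadjusted p under 0.05 and 0 called by DESeq2. In that comparison 0.00594% of all genes were called. The 4 tumors were above both tumor-free livers for hand2 (1.90 to 5.55 against 1.5 and 1.66 CPM) and pdgfrb (3.67 to 4.35 against 2.68 and 2.95 CPM). This too is a description, since the share of all genes separated in this way was not computed. These comparisons share the CreLox fish with the ones above, and 2 fish allow little precision: the 95% interval for col1a1a ran from -1.61 to 1.03.

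The controls of the 2 experiments differed in age, genotype, larval ethanol exposure and the filtering of optical duplicates. Their means are given side by side. For col5a1 they were 44.4 ± 12.0 CPM (SD, n = 4) in Cre controls and 43.4 ± 18.9 CPM (SD, n = 5) in non-transgenic controls. For sparc they were 27.7 ± 11.4 and 27.3 ± 6.31 CPM, for pdgfrb 3.95 ± 0.89 and 3.59 ± 0.55 CPM, and for acta2 12.8 ± 12.1 and 12.2 ± 9.44 CPM. For hand2 they were 3.57 ± 1.40 and 3.11 ± 0.97 CPM. In these 5 genes the distance between the means was smaller than the SD of either control group. Means in the Cre controls were higher for col1a2 (7.12 ± 6.63 against 4.57 ± 2.46 CPM) and dcn (2.40 ± 1.08 against 1.51 ± 0.76 CPM), where the distance exceeded the SD of the non-transgenic controls but not that of the Cre controls.

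Within groups, the 3 type I collagen genes varied together. After group means were removed, Pearson's r across the 20 fish was 0.91 for col1a1b with col1a2, 0.858 for col1a1a with col1a1b and 0.816 for col1a1a with col1a2. By contrast col5a1 had r of 0.165, 0.21 and 0.226 with these genes. The stellate cell genes hand2 and acta2 had r of 0.632 with each other, 0.38 at its lowest with 1 fish left out. With col1a1a, col1a1b and col1a2 the r of hand2 was -0.0667, 0.136 and 0.251, and that of acta2 was -0.123, 0.266 and 0.216. These correlations are descriptions over fish whose values share library scaling and depth. Single fish weigh on some of them: the r of dcn with pdgfrb was 0.67, and 0.346 at its lowest with 1 fish left out.

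**Figure D4:**
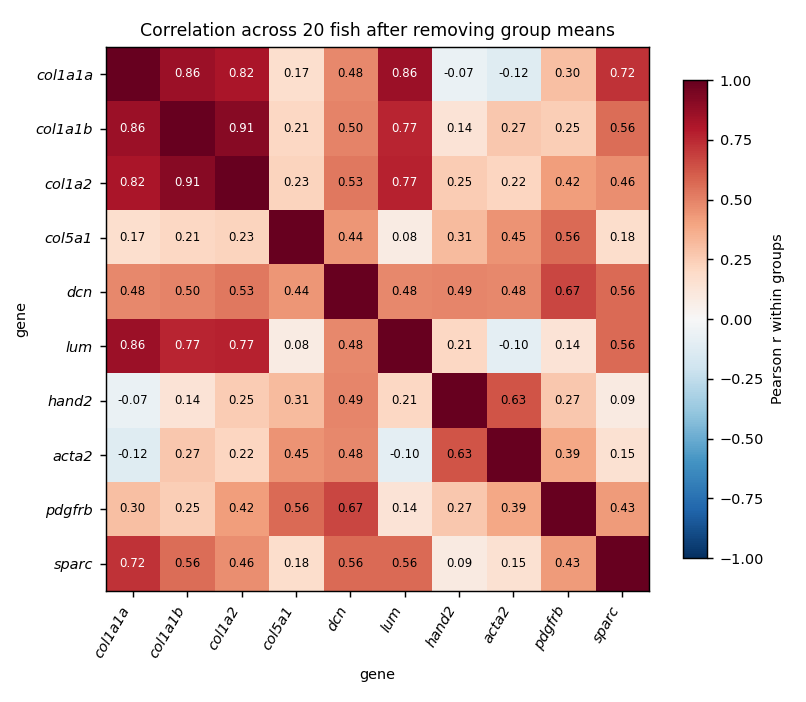
Pearson's r (colour and printed value) between each pair of the 10 genes across the 20 fish after each group's mean log2(CPM + 0.1) was removed. The 3 type I collagen genes and lum form the darkest block, and col5a1 has r of 0.165 to 0.226 with the type I genes.

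Among 10800 genes, the pattern most like col1a2 within groups was that of col1a1b (r = 0.91), followed by col1a1a (0.816) and by COL5A2 (0.791), the α2 chain of type V collagen. The next were DSP (0.781), mid1ip1a (0.738), zgc:194285 (0.72), FILIP1 (0.706), ugt5c3 (0.704), FRMD1 (0.695) and cmah (0.683). With 1 fish left out, the lowest r of these was between 0.575 and 0.655. They are the top of 10800 correlations over 20 fish, and how high unrelated genes would reach was not computed. The partner chain COL5A2 (9.21 ± 4.36 CPM in Cre controls, 3.11 ± 1.12 CPM in CreLox HCC) fell in CreLox HCC (log2 fold change -1.60, SE 0.38, edgeR adjusted p = 0.0443). In HepABC HCC, where col5a1 fell 11.3-fold, COL5A2 had a log2 fold change of -0.61 (SE 0.28, adjusted p = 0.113).

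Other genes of the matrix and of stellate cells were read from lists, beside the background shares above. In HepABC HCC, 4 of 13 further fibrillar and fibril-associated collagens fell and 1 rose. COL6A2 and COL6A3, chains of the beaded type VI collagen, fell by 1.17 and 1.86 on the log2 scale. COL14A1 and col16a1, left out of the ranking of named genes for low level, fell by 4.23 and 2.06. COL14A1 had means of 1.35 CPM in the controls and 0.0696 CPM in HepABC HCC, and col16a1 0.941 and 0.230 CPM. The change of COL14A1 also differed between the models (-3.34, edgeR adjusted p = 0.00902). Of 21 genes that process collagen, 9 fell and 1 rose. P4HB, a subunit of prolyl hydroxylase, fell from 686 ± 182 to 111 ± 16.1 CPM (log2 fold change -2.67, adjusted p = 4.91e-05). The paper lists p4hb among genes raised in a single-cell cluster made mostly of HepABC HCC hepatocytes, so its RNA need not come from matrix-producing cells. BMP1, which trims procollagen, fell by 1.91, and PLOD3, a lysyl hydroxylase, rose by 1.79. Of 21 proteoglycans and glycoproteins, 9 fell and 2 rose. Fibronectin (FN1, ENSDARG00000006526), a plasma protein that hepatocytes also make, fell from 7886 ± 2338 to 305 ± 248 CPM (log2 fold change -4.73). POSTN (ENSDARG00000104267), encoding periostin, fell by 2.45. Other genes with the symbols FN1 and POSTN (ENSDARG00000019815 and ENSDARG00000043806) had log2 fold changes of 1.82 and 0.11 in HepABC HCC and were not called. MMP2, a protease that degrades matrix, was the 1 gene of 10 called in the turnover list (log2 fold change -2.71, adjusted p = 1.23e-04), and it also fell in CreLox HCC (log2 fold change -1.27, adjusted p = 0.0378).

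The stellate and mural cell list held called genes in both directions. In HepABC HCC 8 of 30 tested genes fell and 3 rose, against 16.2% of all genes lower and 17.4% higher. The share that rose was thus below that of all genes. In CreLox HCC 2 of 33 fell and 2 rose, against 1.81% and 2.39% of all genes. The summed level of this list was 344 to 434 CPM in the non-transgenic controls and 620 to 738 CPM in HepABC HCC. Every tumor was thus above every control. The summed level of the genes described here went the other way, from 71.8 to 153 CPM in these controls and 19.7 to 46.9 CPM in HepABC HCC. That sum is weighted heavily by col5a1 and sparc, with means of 43.4 and 27.3 CPM in these controls. The list sums overlapped between Cre controls (371 to 520 CPM) and CreLox HCC (454 to 750 CPM). LRAT, which esterifies vitamin A for storage, fell from 15.7 ± 4.76 to 3.64 ± 1.2 CPM in HepABC HCC (log2 fold change -2.14, SE 0.29, adjusted p = 4.48e-04), and COLEC11, a collectin marking stellate cells, fell from 38.7 ± 7.31 to 7.33 ± 1.66 CPM (log2 fold change -2.44, SE 0.21, adjusted p = 5.16e-05). MYLK (ENSDARG00000034801), myosin light chain kinase, rose from 14.5 ± 3.34 to 224 ± 61.9 CPM in HepABC HCC and from 16.7 ± 1.26 to 112 ± 24.1 CPM in CreLox HCC (adjusted p = 1.75e-05 and 8.94e-04). TAGLN (ENSDARG00000033466), an actin-binding protein, rose in the same 2 comparisons (log2 fold change 3.36 and 1.69). In HepABC HCC it rose from 21.3 ± 4.88 to 226 ± 68.0 CPM, so MYLK and TAGLN weigh heavily on the summed level of the list there. In CreLox without HCC, MYLK had 95.5 ± 2.5 CPM (SD, n = 2) and was called as well (log2 fold change 2.50, adjusted p = 0.00293). Both genes act in contractile cells, as does acta2, which edgeR did not call in any comparison. Other genes with the symbols MYLK and TAGLN (ENSDARG00000004753 and ENSDARG00000045408) had log2 fold changes of -0.42 and -1.79 in HepABC HCC and were not called. In CreLox HCC they had -1.16 and -1.62 and were not called either. The contractile genes with the symbol MYL9 (ENSDARG00000008030 and ENSDARG00000038123) had 1.00 and -2.0 in CreLox HCC, also without a call. The rise of MYLK and TAGLN thus holds for the genes named and not for contractile genes in general.

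The transforming growth factor β and platelet-derived growth factor pathways drive collagen synthesis in stellate cells. Of 31 tested genes of these pathways, 3 rose and 8 fell in HepABC HCC. Among all genes 17.4% were called higher and 16.2% lower, so the rises were below the share of all genes. The receptor TGFBR2 (ENSDARG00000034541) rose in both models, by a log2 fold change of 1.44 in HepABC HCC and 2.25 in CreLox HCC (adjusted p = 0.00674 and 0.0154). CCN2, a matricellular protein, rose by 2.36, and TGFBR1 (ENSDARG00000017494) fell by 1.79. In basement membrane genes, 6 of 16 fell and 1 rose in HepABC HCC: NID1 fell by 1.79, AGRN by 1.98 and COL4A2 by 0.94, while LAMB1 (ENSDARG00000045524) rose by 2.48. In CreLox HCC each of the 7 lists had 1 to 4 called genes out of 11 to 34 tested, against 4.2% of all genes. Among them were 3 of 13 further collagens (COL2A1 higher, COL5A2 and COL6A3 lower). For each gene in the ranking of named list genes that was called in HepABC HCC or CreLox HCC, scaling by library size alone kept the direction. With it, 7 of 27 calls in HepABC HCC (COL4A2, COL6A2, COL6A3 and LOXL1 among them) and 5 of 11 calls in CreLox HCC were lost. The latter included COL5A2 (adjusted p = 0.0895), MMP2 (0.0573) and COL6A3 (0.119). List counts in HepABC HCC moved with that scaling as well. Collagen processing then had 2 of 21 genes lower and 4 higher, and further collagens had 1 of 13 lower and 2 higher. Stellate and mural genes had 5 of 30 lower and 8 higher. Growth factor pathway genes had 1 of 31 lower and 11 higher, and basement membrane genes 3 of 16 lower and 3 higher. Under that scaling 5.38% of all genes were called lower and 50.1% higher.

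**Figure D5:**
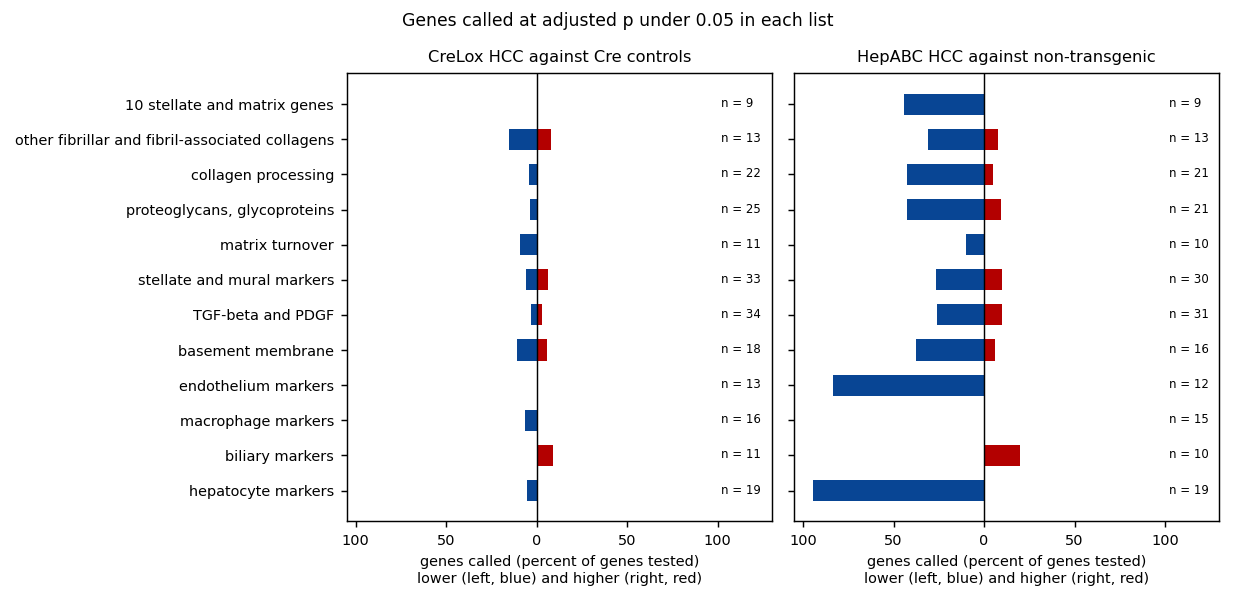
Share of tested genes called lower (blue, left) and higher (red, right) in 12 gene lists, for CreLox HCC (left panel) and HepABC HCC (right panel), with the number tested beside each bar. With TMM scaling, 4 of the 9 genes described here, 10 of 12 endothelial markers and 18 of 19 hepatocyte markers were lower in HepABC HCC.

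Markers of some other cell types also differed in HepABC HCC. With TMM, 16.2% of all genes tested there were called lower and 17.4% higher. Of 12 endothelial markers tested, 10 fell, and their summed level was 150 to 187 CPM in the controls and 54.3 to 80.1 CPM in HepABC HCC, with kdrl falling by 1.58, cdh5 by 1.19 and TIE1 by 1.02. These values use TMM. With library size alone as the scaling, 2 of the 12 endothelial markers were called lower and 1 higher, where 5.38% of all genes were called lower and 50.1% higher. The defining sinusoidal markers lyve1b and stab2 were at or near 0 in all groups (at most 4 and 17 counts). Of 19 hepatocyte markers 18 fell, with summed levels of 213300 to 269700 CPM in the controls and 39900 to 77630 CPM in HepABC HCC; fabp10a itself had means of 19070 and 7770 CPM. The 15 macrophage markers had a median log2 fold change of -0.44, with 0 called. Erythrocyte markers had 6 of 6 lower. Biliary markers had 2 of 10 higher, which is near the share of all genes (summed 1128 to 2498 CPM in controls, 4788 to 8187 CPM in HepABC HCC). The biliary sums rest mostly on krt18a.1 and ANXA4 (means of 1641 and 812 CPM over the 20 fish). The paper lists krt18 and anxa4 among genes raised in a single-cell cluster made mostly of CreLox HCC hepatocytes. Gut epithelium markers summed to 887 to 1937 CPM in the controls and 420 to 670 CPM in HepABC HCC. Every tumor was below every control, with 1 of 3 markers called lower. That sum rests mostly on apoa4b.1 (mean of 909 CPM over the 20 fish, against 137 CPM for FABP2). The paper lists apoa4b.1 among genes raised in single-cell clusters made mostly of HepABC HCC hepatocytes, so the sum does not measure gut tissue alone. Under library size alone, 7 of 10 biliary and 3 of 15 macrophage markers were called higher, and 0 of 3 gut markers were called lower. The part of these markers in the change of the 10 genes was not tested.

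Exocrine pancreas markers, from tissue attached to the fish liver, were 11 of 11 lower in HepABC HCC, with summed levels of 19.4 to 8320 CPM in the controls and 15.9 to 31.1 CPM in the tumors. Control fish 317C8 had as little as the tumors (19.4 CPM), and it had 30.4 CPM of col5a1, 17.6 CPM of sparc and 4.62 CPM of hand2, each above all 5 tumors, but 2.71 CPM of pdgfrb, which fish 317E5 exceeded. It is 1 fish, looked at after the values were seen, and the part of pancreas tissue in the HepABC changes was not tested. In CreLox HCC the 13 endothelial markers had a median log2 fold change of -0.11, with summed levels of 116 to 193 CPM in Cre controls and 117 to 158 CPM in CreLox HCC, and hepatocyte markers had 1 of 19 lower. Biliary markers summed to 1191 to 1811 CPM in Cre controls and 1899 to 3702 CPM in CreLox HCC. Every tumor was above every control, with 1 of 11 markers called higher, against 2.39% of all genes. The genes krt18a.1 and ANXA4 weigh heavily on these sums too, and whether biliary cells differed was not tested. The 12 exocrine pancreas markers had a median log2 fold change of -3.02 in CreLox HCC (58.1 to 734 CPM summed in Cre controls, 19.8 to 62.5 CPM in tumors), and the 16 macrophage markers one of -0.61 (323 to 904 and 240 to 356 CPM). Their part in the CreLox values was not tested. Skeletal muscle markers were near 0 in all 5 groups, at most 2.57 CPM summed, and skeleton and scale markers had 14.2 to 64.0 CPM summed in HepABC HCC and 14.7 to 16.6 CPM in its controls.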

How the data were processed

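The authors removed optical duplicates from the CreLox reads only (clumpify), trimmed adapters with cutadapt, aligned reads of polyA-selected stranded libraries with STAR 2.6.1b to GRCz11 and deposited raw counts per Ensembl gene from featureCounts 1.6.3; the submitters' notes also name DESeq2 1.22.2. Depth per library is given above and limits genes with few counts. Each of the 33 same-group pairs of libraries differed by more than sampling noise (chi-square per degree of freedom 65.7 to 492), so no library was merged. Symbols came from a reference table, which matched 29201 identifiers.

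Counts were fitted in R 4.3.3 with edgeR 4.0.16 (filterByExpr, TMM, glmQLFit, glmQLFTest), 3 CreLox groups together, the HepABC groups together, and all 20 libraries for the difference between models. SE is the absolute log2 fold change over the square root of F. The 95% intervals are 1.96 SE, a normal approximation that is narrower than the F test implies with so few fish. The tests were tried on simulated data first. For single fish, log2(CPM + 0.1) was used. Alternatives were DESeq2 1.42.0, limma 3.58.1 voom with sample weights, DESeq2 size factors, library size alone, no low-count filter, the compared groups alone, an unadjusted p and each fish left out. The study's methods name 3 CreLox HCC fish; GEO's labels give 4, and all 4 were used.

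The genes and lists were chosen with earlier results of these data known. Named list genes are up to 3 called genes with the largest rise and 3 with the largest fall per list and model (mean log2 CPM of at least 0), the 3 most abundant markers, and the 10 genes most like col1a2. COL5A2, COL14A1 and col16a1 in HepABC HCC, the MYL9 genes and the second MYLK, TAGLN, FN1 and POSTN genes fell outside that rule. They were added after their values were seen. Fish are separate animals, and the p-values test a group difference against the spread between fish. In edgeR that spread is estimated with information shared across genes and, in the CreLox fit, across the 3 groups.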

Additional observations from a re-analysis of the deposited data

Results flagged for a closer look

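Among 40 gene and group pairs with 4 or 5 fish, 3 had a fish far from the others of its group by Dixon's test; chance gives about 1 in 20. In the Cre controls, fish 628 had 2.26 CPM of lum where the nearest fish had 0, and fish 622 had 30.7 CPM of acta2 where the nearest had 9.30. In HepABC HCC, fish 317E5 had 5.96 CPM of dcn where the nearest had 1.36. The change of col5a1 differed between the models by a test of the difference itself (-2.28 on the log2 scale, adjusted p = 0.015 in edgeR's fit of all 20 libraries).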

How the results depend on the processing

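For CreLox HCC against the Cre controls, the main count of 0 genes called became 5 with DESeq2, 1 with limma voom, 7 at an unadjusted p under 0.05 and 0 to 2 with 1 fish left out (2 without fish 630, 1 without fish 624). An unadjusted p gave 6 genes for CreLox without HCC and 1 for CreLox HCC against CreLox without HCC, with 0 called under each other setting. Counts at an unadjusted p have no share over all genes beside them, because it was not computed. For HepABC HCC the 4 genes became 2 with library size alone, 1 with fish 317C8 as the only control (added after seeing the data, an arm of 1 fish with no spread of its own, from which nothing is read) and 3 to 6 with 1 fish left out. For the difference between models the 1 gene became 2 with DESeq2, library size alone and limma voom, 5 at an unadjusted p, and 1 to 2 with 1 fish left out. In HepABC HCC col5a1 and sparc were called under each setting that kept more than 1 control.

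Directions turned only in genes that edgeR had not called. In CreLox HCC, hand2 was 0.184 with library size alone, and pdgfrb was 0.01 with DESeq2, 0.004 with DESeq2 size factors, 0.308 with library size alone, 0.027 with no low-count filter and 0.017 with the compared groups alone. With limma voom, dcn was -0.375 in CreLox HCC against CreLox without HCC and -0.027 in HepABC HCC. In HepABC HCC, library size alone gave 0.555 for col1a1a, 0.023 for col1a1b and 0.607 for col1a2, and 317C8 as the only control gave 0.491 for col1a1a and 0.498 for col1a2. In the difference between models, library size alone gave 0.324 for sparc.

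With 1 fish left out, the log2 fold changes that turned ranged from -0.467 to 0.108 (hand2) and -0.107 to 0.119 (pdgfrb) in CreLox HCC, from -0.859 to 0.18 (col5a1) and -1.212 to 0.176 (acta2) in CreLox without HCC, and from -0.427 to 0.744 (dcn) and -0.593 to 0.209 (sparc) in CreLox HCC against CreLox without HCC. They ranged from -0.471 to 0.072 (col1a1a) and -0.799 to 0.592 (dcn) in HepABC HCC, and from -0.289 to 0.475 (col1a1b) and -0.437 to 0.999 (acta2) in the difference between models. The cause of these shifts was not tested. Low counts limit dcn and lum. No paired analysis was possible because the labels tie no fish of a group to a fish of another, and the numbers only name fish.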
